A study of Mus musculus with 6 samples.

Results

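The small leucine-rich proteoglycans are secreted proteins built around a string of leucine-rich repeats. The 10 genes described here, Dcn, Bgn, Aspn, Lum, Fmod, Prelp, Kera, Omd, Ogn and Podn, were chosen by name and matched by Ensembl identifier to 10 of the 37991 gene rows in the count files. All 10 had a row, and all 10 passed the filter on low counts. RNA was sequenced from cells sorted for GFP under Nestin control, taken from the dermis of 3-day-old pups with the white fat attached to it. The 3 mutant libraries came from Nestin-GFP;Nestin-Cre;PDGFRα+/D842V mice. These carried the GFP reporter, the Cre recombinase driven by Nestin sequences, and 1 copy of the receptor gene with the activating change D842V. The sample titles write [S]D842V and do not explain the prefix. The 3 control libraries came from Nestin-GFP mice, with the same reporter and labelled without Cre or the changed receptor. An effect of Cre and one of the allele therefore cannot be told apart. Each library came from sorted cells of 1 genotype. The labels used here name neither sex, litter nor strain, nor how many animals gave each library.

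The proteins of this family bind collagen fibrils and set how thick, how regular and how tightly packed the fibrils become. Most carry glycosaminoglycan side chains: chondroitin or dermatan sulfate on the class I members decorin and biglycan, and keratan sulfate on several class II members. Several also hold growth factors of the TGF-beta and BMP families in the matrix. In skin, loss of decorin or of lumican in mice leaves irregular collagen fibrils and a fragile dermis.

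Gene counts per library ran from 11912469 to 18792939. On these plain totals 3 counts, the upper limit for a gene with none, corresponded to 0.16 to 0.252 CPM. CPM, the usual library-size scaling of counts, include TMM factors everywhere else. Pdgfra, the targeted gene, had 345 to 369 CPM in mutants and 820 to 857 CPM in controls (log2 fold change -1.24, edgeR adjusted p = 2.75e-06). Nes, the gene of the reporter's promoter, had 74.3 to 99.6 CPM in mutants and 67.9 to 79.2 CPM in controls (0.18, adjusted p = 0.28). Mutant replicate 1 had 884 CPM of Xist, against 0.195 and 0.264 CPM in mutant replicates 2 and 3 and 0.128 to 0.336 CPM in controls. The Y-linked gene Ddx3y ran the other way, with 0.201 CPM in mutant replicate 1 and 83.2 to 117 CPM in the other 5 libraries, so that 1 of 6 libraries differed in sex from the rest. Of all 15035 genes tested by edgeR 17.8% were called, 8.63% higher and 9.13% lower. Every mutant library lay above every control in 19.2% of these genes and below in 18.6%. Near the share called were the mural (20% called), adipocyte (20%) and Schwann (16.7%) lists. Of 10 mural markers 2 rose (1267 to 1693 summed CPM in mutants, 1476 to 1920 in controls). Of 10 dermal fibroblast markers, Pdgfra among them, 2 rose and 2 fell (58250 to 71730 in mutants, 68720 to 76140 in controls). Summed CPM did not overlap for skeletal muscle markers, with 7 of 9 higher (207.8 to 309 in mutants, 90.7 to 110.8 in controls), for endothelial markers, with 5 of 8 higher (209.8 to 308 in mutants, 130.3 to 168 in controls), and for keratinocyte markers, with 4 of 6 higher (815 to 1008 in mutants, 385 to 662 in controls). Adipocyte markers (1 of 5 tested rose, 246 to 546 in mutants, 149.5 to 229 in controls) and mast cell markers (3 of 5 rose and 1 fell, 105.8 to 124 in mutants, 79.6 to 97.3 in controls) were likewise separate. For Schwann cells 1 of 6 fell (152 to 193 in mutants, 199 to 229.6 in controls). Macrophage markers gave 0 calls in 6 with edgeR, DESeq2 or limma-voom (1 at an unadjusted p under 0.05 in edgeR), with 225 to 274 summed CPM in mutants and 172 to 319 in controls; without control replicate 1, C1qa and Lyz2 were called higher. Several of these counts rested on single libraries. Keratinocyte rises numbered 1 without control replicate 3, mutant replicate 1 or mutant replicate 3, and endothelial rises 3 without control replicate 3. Omitting control replicate 1, control replicate 2 or mutant replicate 3 ended the adipocyte rise, and omitting control replicate 2, control replicate 3 or mutant replicate 1 ended the mast cell fall. Fibroblast rises numbered 1 when either control replicate 3 or mutant replicate 3 was omitted. The part of these markers in the results below was not tested. In sorted bulk cells, fewer cells of a type and less RNA per cell cannot be told apart.

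The summed level of the family overlapped between the groups. Together the 10 genes took 0.478 ± 0.0369% of gene counts in mutants and 0.521 ± 0.0373% in controls (SD, n = 3 each). Their summed level was 5283, 4323 and 4774 CPM in mutant replicates 1 to 3, against 5650, 4823 and 5186 CPM in control replicates 1 to 3. No test was made on the sum.

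Levels of different genes were compared per kilobase of transcript, first with the length of the longest coding transcript, a scale chosen after seeing the data. On that scale Dcn was highest, with 816 ± 42.4 CPM per kilobase in mutants and 837 ± 46.1 in controls (SD, n = 3 each, as for all levels per kilobase). Bgn followed with 601 ± 100.4 in mutants and 713 ± 116 in controls, where it differed from Dcn by less than their summed spread. Lum had 397 ± 49.4 in mutants and 479 ± 14.9 in controls, and Aspn 256 ± 17.6 in mutants and 238 ± 26.4 in controls. These 4 genes thus made up nearly all of the family's transcripts. Ogn came next, with 75.7 ± 5.15 in mutants and 55.2 ± 5.28 in controls. Prelp (16.6 ± 0.749 in mutants, 19.6 ± 1.81 in controls) and Podn (15 ± 1.43 in mutants, 15.8 ± 1.45 in controls) lay close together, and in mutants they differed by less than their summed spread. Kera (8.41 ± 2.74 in mutants, 6.31 ± 0.637 in controls) and Fmod (4.59 ± 0.801 in mutants, 5.83 ± 0.399 in controls) were lower, and in controls they too differed by less than their summed spread. Omd was lowest, with 0.900 ± 0.127 in mutants and 1.33 ± 0.216 in controls.

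The order at the top depended on the length used. Per kilobase of the union of all annotated exons, the length first set for these levels, Lum was highest with the same 397 ± 49.4 in mutants and 479 ± 14.9 in controls. Dcn then had 246 ± 12.8 in mutants and 252 ± 13.9 in controls, Bgn 239 ± 39.8 in mutants and 283 ± 46.2 in controls, and Aspn 253 ± 17.4 in mutants and 235 ± 26.2 in controls, so that these 3 could not be ranked. The exon union of Dcn is 5838 bases and that of Bgn 6099 bases, against 1758 and 2419 bases for the longest coding transcript. The length cancels in every comparison between mutants and controls.

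**Figure D1:**
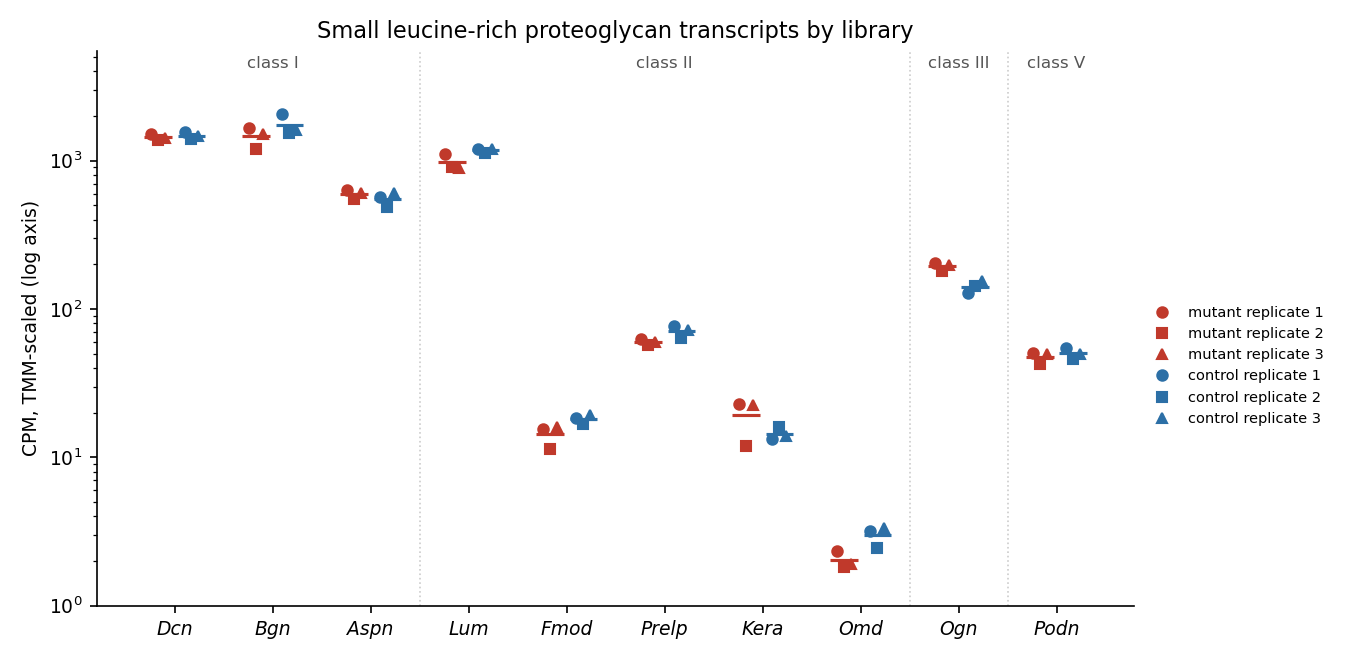
TMM-scaled CPM of the 10 genes on a log axis, mutant libraries in red on the left of each pair and control libraries in blue on the right, with marker shapes for replicates and bars for means of 3 libraries. Ogn is the gene whose mutant libraries, 179 to 204 CPM, all lie above the controls, 127 to 154 CPM, and Kera has 2 high mutant libraries and 1 at 12 CPM.

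Between genotypes 1 of the 10 genes was called, and it was higher in mutants. Across all 15035 genes tested by edgeR, 17.8% were called, 8.63% higher and 9.13% lower, so 1 call in 10 genes (10% of members) was not above that background. Counts over all genes were more than 1.5 times smaller when 1 of 3 libraries was left out: 776 were higher and 881 lower without control replicate 2, 679 and 807 without control replicate 3, and 658 and 753 without mutant replicate 3, against 1298 and 1372 with all 6 libraries. No member was called lower by edgeR. At an unadjusted p under 0.05, 4 members were lower (Lum, Fmod, Prelp and Omd) and 1 was higher (Ogn), where the shares over all genes were 16.5% and 16.3%. DESeq2 called 1 lower, Lum, and limma-voom 0. Every mutant library lay above every control in 1 member and below in 4, which held for 19.2% and 18.6% of all genes tested. The median log2 fold change of the 10 was -0.16, against 0.01 over all genes tested.

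**Figure D2:**
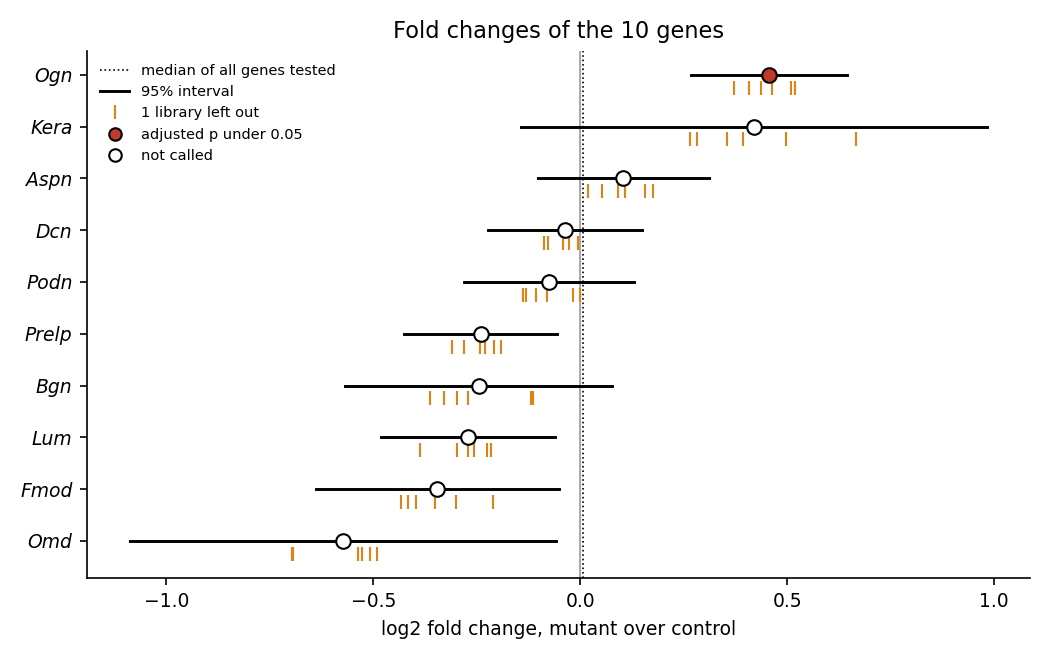
Log2 fold changes, mutant over control, with 95% intervals from the edgeR fit, and orange ticks for the value with each single library left out. Ogn at 0.46 is the gene called (red). The 4 genes Prelp, Lum, Fmod and Omd, from -0.24 to -0.57, have intervals below 0 without a call. Bgn at -0.25 lies among them with an interval that spans 0, and the interval of Kera is the widest.

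Ogn encodes osteoglycin, also called mimecan, a class III member that takes part in collagen fibril formation. It had 204, 179 and 199 CPM in mutant replicates 1 to 3, against 127, 144 and 154 CPM in control replicates 1 to 3. Every mutant library lay above every control library. The means were 194 ± 13.2 CPM in mutants and 141.6 ± 13.5 CPM in controls, 1.37-fold higher (log2 fold change 0.46, 95% interval 0.27 to 0.64, edgeR adjusted p = 0.00507). The call held in 13 of 13 alternatives, with adjusted p-values up to 0.0226 and log2 fold changes of 0.37 to 0.52. Counts were 3044, 2756 and 3767 in mutants and 1985, 1712 and 2405 in controls. An earlier look at these data had shown this rise. What is added here is its standing within the family: Ogn made up 3.46 ± 0.131% of the family's transcripts in mutants and 2.34 ± 0.355% in controls by longest coding transcript, and 6.06 ± 0.26% and 4.11 ± 0.55% by exon union. These shares restate the same counts. By either length, the share of Aspn also lay above every control in every mutant library, and those of Lum, Prelp and Omd lay below.

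**Figure D3:**
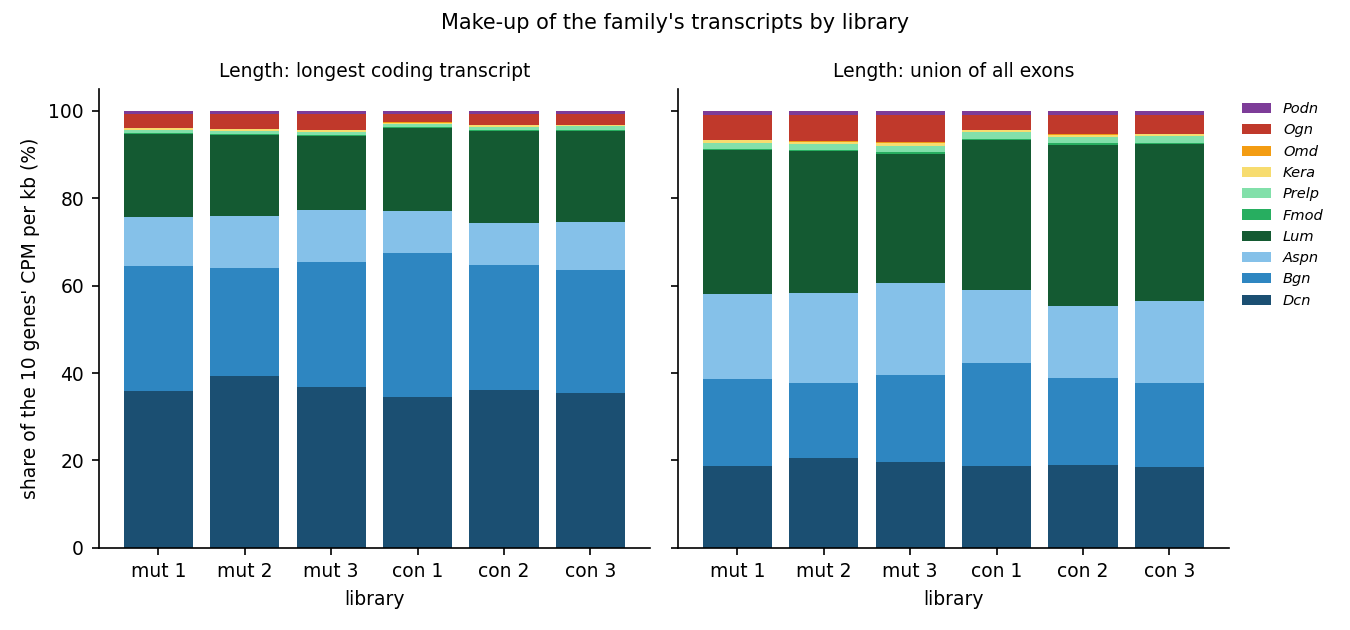
Share of each gene in the summed CPM per kilobase of the 10 genes, as stacked bars from 0 to 100%, for 3 mutant libraries on the left and 3 control libraries on the right of each panel, with the longest coding transcript (left panel) or the exon union (right panel) as length. Dcn, Bgn, Lum and Aspn fill most of every bar, and the red Ogn segment is 3.31% to 3.56% in mutants and 1.94% to 2.55% in controls in the left panel.

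Osteoglycin sits in a tight genomic cluster with other family members, and it was the 1 gene called of the 4 there. With 17.8% of all genes called, 1 call in 4 genes is a description of these genes and not of the cluster. On chromosome 13 the order is Ecm2, Aspn, Omd and Ogn, with gaps of 11.7, 14.9 and 15.2 kb between neighbours in a later build than that of the counts. Aspn encodes asporin, a class I protein with an aspartate-rich stretch and no glycosaminoglycan chain in the usual position. It had 630, 550 and 606 CPM in mutants and 566, 487 and 609 CPM in controls, overlapping ranges with a log2 fold change of 0.10 (95% interval -0.10 to 0.31, edgeR adjusted p = 0.481). Omd encodes osteomodulin, a keratan sulfate protein best known from bone. It was scarce, at 2.35, 1.82 and 1.9 CPM in mutants and 3.2, 2.43 and 3.33 CPM in controls, which rest on 28 to 52 counts per library. Its mutant libraries lay below the controls without overlap, yet it was not called (log2 fold change -0.57, 95% interval -1.09 to -0.06, edgeR adjusted p = 0.114). Ecm2, a matrix protein with related repeats, had 32.2 ± 4.29 CPM in mutants and 35.1 ± 5.44 CPM in controls and was not called (log2 fold change -0.13, edgeR adjusted p = 0.512). Cenpp, on the opposite strand, overlaps the span of Aspn, Omd and Ogn. It shares 7 exon bases with Aspn and 0 with Omd or Ogn, and it had 6.2 ± 0.621 CPM in mutants and 6.6 ± 0.476 CPM in controls.

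The sequences upstream of these 3 neighbouring members are shown because 1 of them was called and its neighbours were not. Each is the 250 bases before the RefSeq start site (GRCm38.p6, plus strand), at chr13:49607765-49608014 for Ogn, chr13:49544193-49544442 for Aspn and chr13:49582212-49582461 for Omd. Capitals mark matches on either strand to the TATA box letters TATAAA, to the CCAAT box, to the GC box letters GGGCGG or to the AP-1 letters TGANTCA.
Ogn: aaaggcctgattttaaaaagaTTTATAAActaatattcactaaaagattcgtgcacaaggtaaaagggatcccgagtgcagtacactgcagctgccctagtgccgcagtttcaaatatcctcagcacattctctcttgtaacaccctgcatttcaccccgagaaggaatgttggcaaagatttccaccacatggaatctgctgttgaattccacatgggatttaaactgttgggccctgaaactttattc
Aspn: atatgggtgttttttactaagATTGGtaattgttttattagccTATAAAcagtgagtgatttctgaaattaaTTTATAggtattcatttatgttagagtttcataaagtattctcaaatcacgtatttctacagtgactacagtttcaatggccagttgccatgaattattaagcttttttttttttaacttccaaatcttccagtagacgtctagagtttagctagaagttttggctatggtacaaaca
Omd: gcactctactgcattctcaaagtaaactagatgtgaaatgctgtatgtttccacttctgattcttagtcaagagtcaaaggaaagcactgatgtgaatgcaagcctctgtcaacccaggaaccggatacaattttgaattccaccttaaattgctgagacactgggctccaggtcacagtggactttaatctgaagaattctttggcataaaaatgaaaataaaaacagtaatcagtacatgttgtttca
Ogn held 2 overlapping TATAAA matches on opposite strands, Aspn held 2 separate ones and 1 CCAAT match, and Omd held none of the 4 motifs. Over all 32851 promoters in the RefSeq table, windows of the same length held TATAAA in 12.4%, CCAAT in 33.8%, GGGCGG in 32.7% and TGANTCA in 6.75%. The E-box letters CANNTG, left uncapitalised, matched 3 times in Ogn, 1 time in Aspn and 0 times in Omd, and they occur in 66.2% of all windows. These are descriptions of letters in a window, not binding sites. RefSeq upstream sequence was matched for 8 of the 10 members, Dcn and Lum being the others.

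The cluster on chromosome 10 holds Dcn, Lum, Kera and Epyc in that order, with gaps of 47, 34.2 and 30.4 kb. Of the 4, 1, Epyc, was called, where 17.8% of all genes were. Dcn encodes decorin, which binds collagen fibrils and limits their lateral fusion. It had 1516, 1372 and 1414 CPM in mutants and 1554, 1392 and 1467 CPM in controls. The groups overlapped almost wholly, with a log2 fold change of -0.04, and the 95% interval of -0.22 to 0.15 spans 0.857-fold to 1.11-fold (edgeR adjusted p = 0.802). Next to it, Lum encodes lumican, a protein of skin and cornea that can carry keratan sulfate. Lum had 1111, 908 and 896 CPM in mutants and 1190, 1130 and 1196 CPM in controls, with every mutant library below every control library. The log2 fold change was -0.27 (95% interval -0.48 to -0.06), and Lum was not called by edgeR (adjusted p = 0.0713). It was called with DESeq2 (adjusted p = 0.0254), with no filter on low counts (0.0136), with the replicate block (0.0488) and without mutant replicate 1 (0.0178), and its adjusted p over the 13 alternatives ranged from 0.0136 to 0.25.

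Kera encodes keratocan, the keratan sulfate protein of the cornea, and was present at a low level in these skin cells. It had 23, 12 and 22.6 CPM in mutant replicates 1 to 3, against 13.3, 16 and 13.9 CPM in controls. Mutant replicate 2 lay below all 3 controls and the other 2 mutants above them, so the groups overlapped. The log2 fold change of 0.42 (95% interval -0.14 to 0.98) was not called (edgeR adjusted p = 0.273). Without mutant replicate 2 it was 0.67 and called (adjusted p = 0.00511), and without both that library and control replicate 1 it was 0.60 and called (0.00331). Mutant replicate 2 was likewise the lowest mutant for every other member but Lum, and for the summed family level (4323 CPM). It was also the library with the most adipocyte marker RNA, 546 summed CPM of the list, where the lowest mutant had 246. The part of that RNA in the value of Kera, or of the other members, was not tested. Epyc, the gene of epiphycan, a class III member of growth plate cartilage, is not among the 10 and lies beside Kera. It rose to 3.29, 4.23 and 4.96 CPM in mutants, against 1.09, 2.52 and 1.6 CPM in controls, on 17 to 94 counts per library (log2 fold change 1.29, 95% interval 0.66 to 1.93, edgeR adjusted p = 0.011). Its call was lost without control replicate 3 (adjusted p = 0.0536). Among 8 cartilage markers 1 of 6 tested rose and 1 fell (33.3% called, where 17.8% of all genes were). Another 2 had 3 counts or fewer in every library. Omitting any 1 library but control replicate 2 ended the rise. The fall ended when either control replicate 2 or mutant replicate 3 was omitted, and omitting control replicate 1 gave 3 falls. Summed CPM of the list was 56 to 74.2 in mutants and 90.5 to 99.6 in controls.

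**Figure D4:**
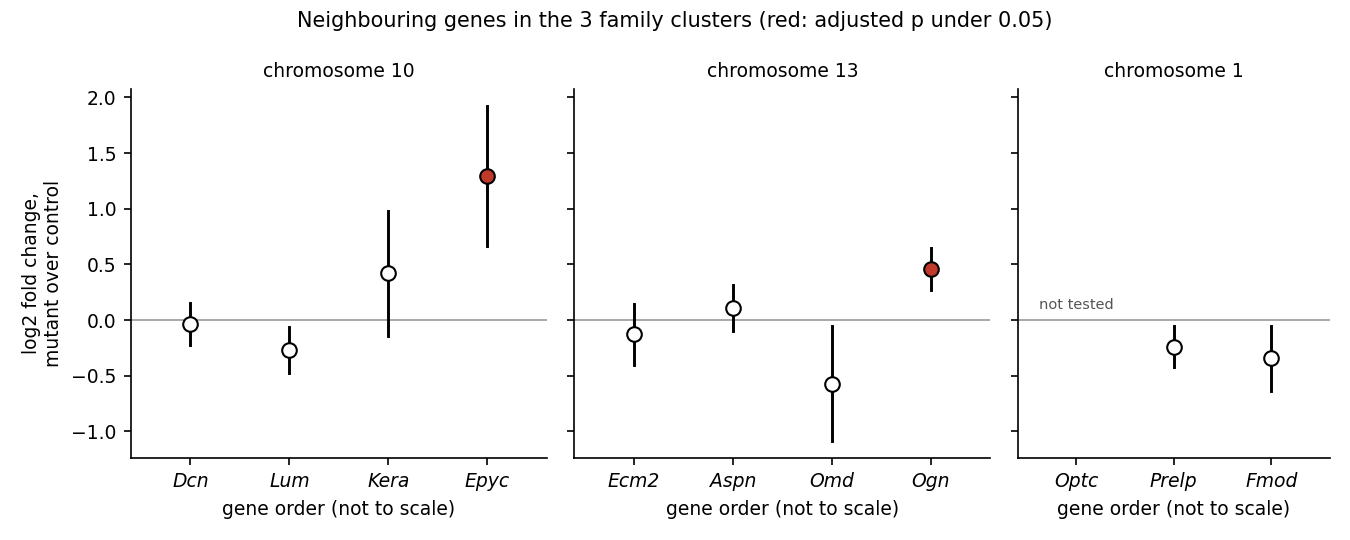
Log2 fold changes, mutant over control, of neighbouring genes in gene order (not to scale) on chromosomes 10, 13 and 1, with 95% intervals and red points for calls. The end genes Epyc at 1.29 and Ogn at 0.46 are called, while their neighbours lie between -0.57 and 0.42.

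Fmod and Prelp lie on chromosome 1 with Optc, the opticin gene, and both were lower in every mutant library without being called. Fmod encodes fibromodulin, a keratan sulfate protein of tendon and other dense tissue that guides collagen crosslinking. It had 15.6, 11.4 and 15.9 CPM in mutants and 18.4, 16.9 and 19.3 CPM in controls (log2 fold change -0.35, 95% interval -0.64 to -0.05, edgeR adjusted p = 0.0958). Prelp encodes a protein with a basic, heparin-binding end that links basement membrane proteoglycans to collagen. Prelp had 62.5, 57.1 and 60.2 CPM in mutants and 76.6, 63.7 and 72 CPM in controls (log2 fold change -0.24, 95% interval -0.42 to -0.06, edgeR adjusted p = 0.0692). Both were called with no filter on low counts (adjusted p = 0.044 for Fmod and 0.036 for Prelp), and Prelp also without control replicate 2 (0.0489). Over the 13 alternatives the adjusted p ranged from 0.044 to 0.269 for Fmod and from 0.036 to 0.261 for Prelp. An antisense gene, Gm15851, shares 350 exon bases with Prelp, 9.68% of its exon union, and reads there cannot be assigned to one or the other, since no source used here says whether counting used strand. Optc had 5 to 7 counts in mutants and 6 to 12 in controls and did not pass the filter.

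Fibromodulin and osteomodulin are also products of tendon and bone, whose markers moved in part. Of 6 tested tendon and fascia markers 2 rose and 2 fell. That is 66.7% called, against 40% of the bone and of the nerve sheath markers below and 17.8% of all genes. The 3 named here were picked with their values known. Mkx, a transcription factor of tendon, fell to 1.27 ± 0.16 CPM in mutants, against 3.95 ± 0.0704 CPM in controls (log2 fold change -1.62, edgeR adjusted p = 0.000877), a call kept in 13 of 13 alternatives. It rests on 17 to 61 counts per library. Tnmd, the tenomodulin gene, had 22.1, 19 and 13.9 CPM in mutants and 37, 26.7 and 37.9 CPM in controls and fell. Scx, an early tendon transcription factor, rose to 1.14, 1.17 and 2.11 CPM, against 0.512, 0.336 and 0.512 CPM in controls. The Scx values rest on 17, 18 and 40 counts in mutants and only 8, 4 and 8 in controls. Leaving out control replicate 3 or mutant replicate 2 ended the call of Tnmd, and leaving out mutant replicate 3 ended that of Scx. Rises in the list numbered 0 without mutant replicate 3 and 1 without mutant replicate 2 or any 1 control library. Summed CPM of the list overlapped, with 191.5 to 298 in mutants and 170.3 to 237 in controls. Of 5 tested bone markers 2, Alpl and Sp7, fell and none rose by edgeR (1 higher at an unadjusted p under 0.05), with 52.9 to 58.9 summed CPM in mutants and 58 to 65.4 in controls, and Bglap had 3 counts or fewer in every library. Alpl was called in 13 of 13 alternatives, while Sp7 lost its call in 7, among them DESeq2 and the omission of control replicate 1 or 3 or mutant replicate 2 or 3. Ibsp, the bone sialoprotein gene, had 11, 10.8 and 8.39 CPM in mutants and 0.384, 3.27 and 3.27 CPM in controls, with no overlap (log2 fold change 2.15, edgeR adjusted p = 0.0709). It was called higher by DESeq2 (adjusted p = 0.0476), by limma-voom (0.011) and by edgeR without control replicate 1 (0.00014). Of 5 markers of the nerve sheath 1 rose and 1 fell (95.3 to 110.6 summed CPM in mutants, 95.2 to 111.8 in controls). Omitting control replicate 3 or mutant replicate 1 ended both calls there, omitting mutant replicate 3 the rise and omitting control replicate 2 the fall, while omitting control replicate 1 gave 2 falls. The part of these cells in the values of Fmod and Omd was not tested.

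Bgn and Podn lie outside the clusters of the family, and neither was called. Bgn encodes biglycan, an X-linked gene whose protein binds collagen and, when released, Toll-like receptors. It had 1667, 1190 and 1508 CPM in mutants and 2046, 1525 and 1601 CPM in controls, with 1 mutant library inside the control range. The log2 fold change of -0.25 (95% interval -0.57 to 0.08, edgeR adjusted p = 0.271) was 0.011 without control replicate 1 and mutant replicate 2 together. It was called with no filter on low counts (-0.25, adjusted p = 0.0489). The single library with Xist, mutant replicate 1, was the highest mutant for Bgn, and without it the log2 fold change was -0.36 and not called. That library was also the highest mutant for every other member but Fmod, and the part of sex in these values was not tested. Podn encodes podocan, a class V member first known from the kidney. It had 50.7, 42.5 and 49.7 CPM in mutants and 54.8, 45.6 and 50 CPM in controls (log2 fold change -0.08, 95% interval -0.28 to 0.13, edgeR adjusted p = 0.62). Scp2, on the same strand, overlaps the span of Podn but shares 0 exon bases with it, and it had 58.6 ± 9.33 CPM in mutants and 58.1 ± 3.11 CPM in controls. Gm23354 and Mir6397 also lie in that span and share 0 exon bases.

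The nearest other family genes were mostly scarce. Chad, the chondroadherin gene of cartilage, fell: it had 2, 9 and 6 counts in mutants and 13, 20 and 14 in controls (log2 fold change -1.66, 95% interval -2.73 to -0.58, edgeR adjusted p = 0.0368). At such counts the call was fragile, and leaving out control replicate 2 or 3, or mutant replicate 1 or 3, ended it (adjusted p up to 0.14). Tsku (31 ± 3.13 CPM in mutants, 28 ± 3.33 in controls) and Chadl (6.74 ± 1.16 in mutants, 5.63 ± 1.41 in controls) were not called, and Podnl1 and Nyx, with at most 5 counts, were not tested. With Epyc and Ecm2 this makes 1 higher and 1 lower of 5 tested genes (40% called, where 17.8% of all genes were).

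Most tested genes for building the side chains were not called. The chain starts with a xylose, set by the xylosyltransferases Xylt1 and Xylt2, and these moved apart. Xylt2 had 71.4, 68.1 and 69.4 CPM in mutants and 56.3, 55.7 and 52.7 CPM in controls and rose (log2 fold change 0.34, edgeR adjusted p = 0.00863, called in 13 of 13 alternatives). Xylt1 had 25.7, 31 and 30 CPM in mutants and 35.6, 38.3 and 40 CPM in controls and fell (log2 fold change -0.39, edgeR adjusted p = 0.0151), a call that ended without control replicate 3 and also without mutant replicate 1 (adjusted p up to 0.059). The groups were separate for both enzymes. Of 6 linker genes tested, 1 rose, 1 fell and 4 were not called (33.3% called, where 17.8% of all genes were), with a median log2 fold change of -0.04.

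Of 15 tested genes that lengthen and sulfate chondroitin and dermatan chains 3 rose, 2 fell and 10 were not called. That is 33.3% called, where 17.8% of all genes were, with a median log2 fold change of -0.02. Chpf2, a chondroitin polymerizing factor, rose to 124.7 ± 3.34 CPM in mutants, against 93.2 ± 4.22 CPM in controls (log2 fold change 0.42, edgeR adjusted p = 0.0028). Chst11, a sulfotransferase for position 4 of the galactosamine, rose to 25.6 ± 2.81 CPM in mutants, against 17.2 ± 2.83 CPM in controls (0.57, adjusted p = 0.0123). Both were called in 13 of 13 alternatives. Chst3, which sulfates position 6, fell to 23.9 ± 3.36 CPM in mutants, against 33 ± 4.35 CPM in controls (-0.47, adjusted p = 0.0226), a call that ended when control replicate 3, mutant replicate 2 or mutant replicate 3 was left out (adjusted p up to 0.0739). Falls in the list numbered 1 without any 1 control library and 0 without mutant replicate 2 or 3. The epimerase genes Dse and Dsel turn chondroitin into dermatan, and they are named outside the naming rule, with their values known. The log2 fold change was -0.12 for Dse (edgeR adjusted p = 0.387) and -0.08 for Dsel (0.517), without a call.

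For keratan sulfate, a chain that lumican, fibromodulin and keratocan can carry, 5 genes were tested, 1 fell and 4 were not called. That is 20% called, where 17.8% of all genes were. Chst2, a sulfotransferase for N-acetylglucosamine, had 57.2, 47.8 and 45.9 CPM in mutants and 70.8, 73.6 and 68.1 CPM in controls, with no overlap (log2 fold change -0.49, edgeR adjusted p = 0.00433, called in 13 of 13 alternatives). No gene of the list was called higher by edgeR, and 0 were at an unadjusted p under 0.05 or by any other tool run. Chst4 had a count of 0 in all 6 libraries, and Chst5 had at most 4 counts.

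**Figure D5:**
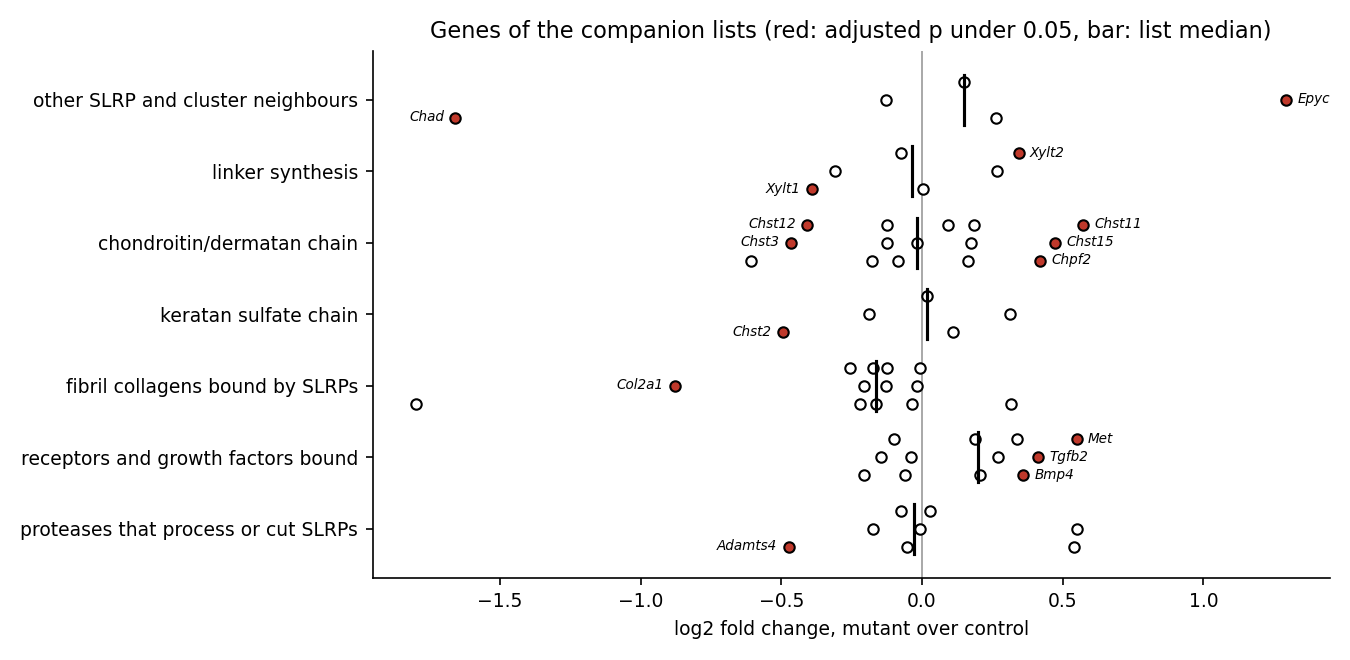
Log2 fold changes, mutant over control, of the tested genes in 7 lists of partner genes, with red points for calls, black bars for list medians and points spread in height to separate them. Calls fall on both sides of 0 in the lists for linker and chondroitin synthesis, and collagens lie mostly left of 0 with 1 call.

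The collagens listed as bound by these proteins gave 1 call in 13 (7.69%, where 17.8% of all genes were called). Beside fibril-forming chains the list holds Col6a1, Col6a2, Col6a3, Col12a1 and Col14a1. The gene called, Col2a1, fell to 3.48 ± 0.908 CPM in mutants, against 6.47 ± 1.94 CPM in controls (log2 fold change -0.88, edgeR adjusted p = 0.0418). That call was lost with upper-quartile scaling, with limma-voom and without any 1 library but control replicate 1 (largest adjusted p 0.153). Of the 13 log2 fold changes 12 were negative, with a median of -0.16, the same as that of the family. Over all 15035 genes tested 7390 were negative, with a median of 0.01. Genes of a list come from the same 6 libraries, so their signs are not separate observations. None was called higher by edgeR (1 at an unadjusted p under 0.05), while DESeq2 called 1 higher and 4 lower. Col11a1, named with its values known, had the largest log2 fold change of the list, -1.80, and was not called (50.5 ± 9.89 CPM in mutants, 175 ± 88.5 CPM in controls, edgeR adjusted p = 0.0611); it was called by DESeq2 (adjusted p = 0.0011), by limma-voom (0.00473), with the replicate block (0.00766) and without control replicate 1 (-1.32, 0.00126). Without control replicate 1, 2 were lower; without mutant replicate 2, 1 was higher and 0 lower; and without control replicate 2 or 3 or mutant replicate 3, 0 were lower.

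Among 12 growth factors and receptors bound by family members 3 rose and none fell by edgeR, with a median log2 fold change of 0.20. That is 25% called, where 17.8% of all genes were. At an unadjusted p under 0.05 or with any other tool 0 were lower. Met, the receptor of hepatocyte growth factor and a decorin partner, rose to 24.3 ± 4.43 CPM in mutants, against 16.7 ± 2.35 CPM in controls (0.55, edgeR adjusted p = 0.0268). Bmp4 (log2 fold change 0.36, adjusted p = 0.0328) and Tgfb2 (0.41, adjusted p = 0.0347) rose too. These calls were fragile: with control replicate 1 or 3 left out the count of rises was 1, and with mutant replicate 1 or 3 left out the count was 0. Tlr2 and Tlr4, receptors of released biglycan, are also named with their values known: the log2 fold change was -0.15 for Tlr2 (edgeR adjusted p = 0.42) and 0.34 for Tlr4 (0.211), without a call.

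Among 8 tested proteases that process or cut family members 1 fell and none rose by edgeR, DESeq2 or limma-voom (2 higher in edgeR at an unadjusted p under 0.05). In edgeR that is 12.5% called, where 17.8% of all genes were. Adamts4, an aggrecanase that also cuts decorin and biglycan, had 148, 132 and 146 CPM in mutants and 162, 222 and 209 CPM in controls (log2 fold change -0.47, edgeR adjusted p = 0.0143). The call was lost without control replicate 2 or 3 (largest adjusted p 0.0672). Bmp1 trims the propeptides of biglycan and osteoglycin and is named with its values known: it had 446 ± 17 CPM in mutants and 471 ± 31.2 CPM in controls and was not called (edgeR adjusted p = 0.541).

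Genes with the profile most like the leading member of each cluster were found among 10887 genes of at least 5 CPM, by the root-mean-square difference of centred log2(CPM + 0.5) over the 6 libraries. Nearest to Bgn were Tmem119, Pmepa1 and Fbln5, at 0.0559, 0.058 and 0.0612. Nearest to Dcn were Fam210b, G6pdx and Snx3 (0.0169 to 0.0228), nearest to Prelp Tulp3, Stxbp4 and Il6st (0.0198 to 0.0242), nearest to Aspn Sec61g, Cstb and Thumpd3 (0.0129 to 0.034), and nearest to Podn Tmem107, Cmya5 and Sgcb (0.0213 to 0.0337). None of these 15 genes was called by edgeR. With 6 libraries and so many candidates, such likeness is a description of these libraries.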

How the data were processed

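The deposited data are 1 table of raw read counts by Ensembl gene for each of 6 RNA libraries. Per the submitters' processing notes, reads were handled on build mm9 with HTSeq 0.5.3, TopHat2 2.0.4, cutadapt 1.1, FastQC and DESeq2, in no stated order, and no source used here gives a strand setting. Rows that name no gene, 5 per library, held 36.9% to 41.7% of reads and were left out. Mutant files carry other numbers than the sample titles, and the titles were followed.

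Identifiers of 32919 of the 37991 rows had a symbol in GENCODE M21 (GRCm38), which also gave lengths, overlaps and gaps; upstream sequence is from RefSeq GRCm38.p6. After TMM scaling and filterByExpr (minimum count 10, total 15), 15035 genes entered the quasi-likelihood test of edgeR 4.0.16 (R 4.3.3, robust, genotype alone). Calls are Benjamini-Hochberg adjusted p-values under 0.05 across those genes. Log2 fold changes put mutant over control, and intervals cover 95%. P-values measure the spread among these libraries, and limits from counts hold counting error only. Libraries of 1 group differed beyond sampling noise (chi-square per degree of freedom 4.73 to 13.3).

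Simulated counts for 14886 genes, 200 of them changed, were tested the same way for mutant over control: 35.4% of 1.5-fold changes, 88.1% of 2-fold changes and 95.5% of 4-fold changes were found, and 15.2% of calls were false. That is above the rate set by the threshold of 0.05. In the data 17.8% of genes were called, a far larger part than was changed here. The share of false calls depends on that part, so 15.2% need not hold for the data.

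Members and lists were chosen with earlier results of these data known. The text names all 10 members, up to 3 called genes of each partner list by adjusted p, and the 3 genes nearest in profile to the most abundant member of each cluster; exceptions are marked. Alternatives were RLE and upper-quartile scaling, DESeq2 1.42.0, limma-voom (limma 3.58.1), no filter, a replicate block and left-out libraries.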

Additional observations from a re-analysis of the deposited data

How the results depend on the processing

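Ogn was called higher in 13 of 13 alternatives, with a log2 fold change of 0.37 to 0.52. Members called lower numbered 1 with DESeq2, 4 with no filter on low counts, 1 with the replicate block and 0 to 1 with single libraries left out, against 0. Members called higher numbered 1 to 2 with single libraries left out, and 2 without control replicate 1 and mutant replicate 2, where the log2 fold change turned positive for Dcn, Bgn and Podn. With 1 library or that pair left out, log2 fold changes ranged from -0.088 to 0.024 for Dcn, from -0.36 to 0.011 for Bgn and from -0.14 to 0.057 for Podn, and all genes called from 658 to 1374 higher and from 753 to 1622 lower. In the list of other family genes, calls lower numbered 0 with DESeq2, which gave Chad no adjusted p, and single omissions gave 0 to 1 higher and 0 to 1 lower. Linker genes higher numbered 2 with upper-quartile scaling, and single omissions gave 0 to 1 lower. Chondroitin genes lower numbered 1 with upper-quartile scaling, 0 without control replicate 1 and mutant replicate 2, and 0 to 2 with single omissions, with 2 to 3 higher. Collagens lower numbered 0 with upper-quartile scaling, 4 with DESeq2, 2 with no filter, 2 with the replicate block and 2 without control replicate 1 and mutant replicate 2; collagens higher numbered 1 with DESeq2, with no filter and in that last setting, and single omissions gave 0 to 2 lower and 0 to 1 higher. Receptors and growth factors higher numbered 0 to 2, and proteases lower 0 to 1, with single omissions. The cause of these shifts was not tested. Deviations of same-numbered libraries correlated at 0.117, -0.0293 and -0.0866, and those of the other pairs at -0.101 to 0.158. The highest was mutant replicate 2 with control replicate 3. With 3 libraries per group such values cannot settle whether samples were paired. Under the block all genes called numbered 1328 higher and 1439 lower, Lum (adjusted p = 0.0488) and Col11a1 (0.00766) were called and Met lost its call (0.059); among markers, Rgs5 (0.0064) and Myh11 (0.049) were called lower and Krt5 lost its call (0.122). Depth limits Omd, Chad, Epyc, Scx and Mkx, which rest on under 100 counts per library.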
